A study of Mus musculus with 27 samples.

Results

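The nuclear genes for proteins of the mitochondrial ribosome were followed through the first hours and days of adipocyte induction in 3T3-L1, a line of mouse fibroblasts able to turn into fat cells. The set holds every gene that the platform annotation names by a single symbol starting with Mrpl or Mrps. It has 77 genes, 48 Mrpl and 29 Mrps, among 19938 genes with a single symbol on the array, and they are read by 85 probe sets. All cells had been transduced with the pMIG vector, either empty or carrying Flag-ISL1, the LIM-homeodomain transcription factor ISL1 with an epitope tag. They were grown 2 days past confluence and given medium with 10% fetal calf serum, 350 nM insulin, 0.5 mM isobutylmethylxanthine, 250 nM dexamethasone and 400 nM biotin. Vector cells were taken before the cocktail (0 h) and at 0.5, 1, 2, 4, 8 and 48 h, and Flag-ISL1 cells at 0 and 48 h, which gives 9 groups of 3 arrays. The series describes the 3 arrays of a group as biological replicates. The sample numbers run in separate blocks for 0 h, for 0.5 to 8 h and for 48 h. Comparisons with 0 h, and of 48 h with 8 h, cross these blocks. A difference between blocks cannot be told apart from one of time there.

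The mitochondrial ribosome translates the few messenger RNAs that mitochondrial DNA encodes, all for subunits of the respiratory chain and ATP synthase. Its RNA comes from mitochondrial DNA, but all its proteins are made in the cytosol from nuclear genes and imported. The large subunit forms peptide bonds, the small subunit reads the messenger, and each combines counterparts of bacterial ribosomal proteins with proteins that bacteria lack. Fat cells build up mitochondria as they mature, and the early response to the hormone cocktail includes renewed growth and cell division. The symbols do not follow the subunits exactly: the products of Mrps18a and Mrps30 sit in the large subunit, and that of Mrps36 belongs to the 2-oxoglutarate dehydrogenase complex, so the structures place 50 of the members in the large and 26 in the small subunit.

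The labels of the 48 h arrays run against their Isl1 signal. The Isl1 probe set read 7.34 ± 0.157 (SD, n = 3, log2) in vector cells and 12.62 ± 0.018 in Flag-ISL1 cells at 0 h. In the 3 arrays labelled Flag-ISL1 48 h it read 7.65 ± 0.306, and in the 3 labelled vector 48 h it read 12.76 ± 0.036. In vector cells after the cocktail it averaged 7.36 at 0.5 h, 7.48 at 1 h, 8.59 at 2 h, 8.29 at 4 h and 8.02 at 8 h. The part of this change in the members' results was not tested. No array was reassigned: the groups keep their labels here, with the Isl1 signal beside them, and 48 h is set against the 0 h group of like Isl1 signal. By list and array, 6 preadipocyte markers averaged 10.95 to 12.29, 7 adipocyte markers 8.58 to 12.01, and the 17 markers of blood, endothelial, epithelial and muscle cells 6.74 to 7.98. In vector cells Cd68 (macrophages) and Cdh5 (endothelium) rose by 0.28 and 0.24 at 2 h, 1.03 and 0.65 at 4 h and 0.90 and 0.80 at 8 h, the only blood and endothelial markers of 5 and 4 that did. Cd68 was also 0.63 higher in the low-Isl1 48 h arrays than at 0 h, and their part in the members' results was not tested. Since these are bulk samples, fewer cells of a type and less RNA per cell cannot be told apart. The spread of values also differed between arrays: 8 of the 27 had an interquartile range under 3.1 log2 units, down to 2.955 where the others lay between 3.18 and 3.38. A gene "rose" or "fell" here if limma gave it a Benjamini-Hochberg adjusted p under 0.05 over all 19938 genes, and every p printed below is that adjusted p. Without the 8 narrow arrays, 8 results for named genes lost that threshold and 8 gained it. Only some of these are given both ways.

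Promoter sequence was available for 68 of the 77 members, as 250 bases before to 50 bases after each start in RefSeq's GRCm38.p6 annotation. Mrpl4, Mrpl13, Mrpl15, Mrpl19, Mrpl38, Mrpl54, Mrps28, Mrps34 and Mrps35 had no entry. These windows were searched on both strands for the letters bound by factors known to act on nuclear genes of mitochondrial proteins, of which NRF1 and the ETS factor GABP are the best known. The NRF1 motif (GCGCANGCG) occurred in 16 of the 68, or 23.5%, against 7.03% of the 27025 genes in the table. The ETS and GABP motif (CCGGAAG) occurred in 25, or 36.8%, against 9.93%. The YY1 motif (AAGATGGCG) occurred in 8, or 11.8%, against 1.64%. The E-box (CACGTG), which MYC can bind, occurred in 5, or 7.35%, against 8.09%, and the cyclic AMP response element (TGACGTCA) in 2, or 2.94%, against 2.03%. In no member did matches of 2 motifs overlap, and 45 of the 68 held at least 1 of the 5. Set beside the 8 h result described below, the NRF1 letters were in 9 of 34 members with an entry that rose, in none of 9 that fell and in 7 of 25 that did neither, and the ETS letters were in 12, 4 and 9 of them. A match is only a run of letters, and its absence from these windows says nothing of the factor.

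The promoters of 6 members that the results turn on follow, each as the 250 bases upstream of the start, 5′ to 3′ on the gene's strand, with matches to the NRF1 or ETS letters in capitals.
Mrpl12: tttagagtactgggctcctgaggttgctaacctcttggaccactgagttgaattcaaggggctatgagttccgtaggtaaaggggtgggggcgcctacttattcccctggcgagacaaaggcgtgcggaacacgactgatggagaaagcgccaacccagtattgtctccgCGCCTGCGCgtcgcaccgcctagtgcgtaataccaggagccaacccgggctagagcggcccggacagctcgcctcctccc
Mrps18b: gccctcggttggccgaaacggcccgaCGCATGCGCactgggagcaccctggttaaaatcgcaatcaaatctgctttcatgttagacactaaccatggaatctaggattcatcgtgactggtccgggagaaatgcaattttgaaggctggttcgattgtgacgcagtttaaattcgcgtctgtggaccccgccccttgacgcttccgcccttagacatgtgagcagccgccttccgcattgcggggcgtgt
Mrpl45: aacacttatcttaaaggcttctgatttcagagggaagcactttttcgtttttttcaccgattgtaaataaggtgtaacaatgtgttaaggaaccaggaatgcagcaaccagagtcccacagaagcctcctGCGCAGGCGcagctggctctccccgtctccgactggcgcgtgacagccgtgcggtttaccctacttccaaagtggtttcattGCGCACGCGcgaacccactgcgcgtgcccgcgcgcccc
Mrps27: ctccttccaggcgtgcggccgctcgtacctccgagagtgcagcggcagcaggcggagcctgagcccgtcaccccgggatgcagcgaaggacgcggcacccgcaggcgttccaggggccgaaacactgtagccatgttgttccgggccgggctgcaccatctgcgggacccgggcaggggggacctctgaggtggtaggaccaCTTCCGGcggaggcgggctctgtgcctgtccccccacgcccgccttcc
Mrpl18: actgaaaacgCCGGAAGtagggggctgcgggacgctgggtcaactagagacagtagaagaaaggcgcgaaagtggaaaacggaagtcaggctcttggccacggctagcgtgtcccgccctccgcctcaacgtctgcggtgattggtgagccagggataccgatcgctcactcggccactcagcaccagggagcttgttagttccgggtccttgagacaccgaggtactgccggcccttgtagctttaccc
Mrpl23: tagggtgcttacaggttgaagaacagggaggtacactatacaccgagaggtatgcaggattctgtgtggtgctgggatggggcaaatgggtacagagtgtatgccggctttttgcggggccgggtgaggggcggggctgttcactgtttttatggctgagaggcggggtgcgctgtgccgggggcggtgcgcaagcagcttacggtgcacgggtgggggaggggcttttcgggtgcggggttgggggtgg
Mrpl12 (chr11:120484387-120484636, plus strand) and Mrps18b (chr17:35916441-35916690, minus strand), which rose early, carry an NRF1 match 80 and 224 bases before the start. Mrpl45 (chr11:97315466-97315715, plus strand), which dipped most at 2 h, carries 2 of them, at 120 and 38 bases. The ETS letters lie 48 bases before the start of Mrps27 (chr13:99344536-99344785, plus strand), the member with the largest change by 48 h, and 240 bases before that of Mrpl18 (chr17:12916092-12916341, minus strand), whose response differed most with Isl1. Mrpl23 (chr7:142532782-142533031, plus strand), the deepest fall at 8 h, has neither in this stretch. These 6 were picked by their results, and no link between motif and response was tested. In the whole searched window Mrps18b also held the ETS letters and Mrps27 the YY1 letters. Mrpl50 and Mrpl20, which also rose early, held none of the motifs and only the E-box.

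In vector cells the members as a group first sat slightly below their starting level and then climbed. Their median change from 0 h was −0.08 (log2) at 0.5 h, −0.09 at 1 h, −0.10 at 2 h, 0.10 at 4 h and 0.23 at 8 h, where the median of all genes stayed between −0.02 and 0.07. Over these 6 times 53 members had their highest mean at 8 h and 23 their lowest at 2 h, counts not made for all genes. Any change over 0 to 8 h, by limma's F test, passed for 68 of the 77 members, 43 of 48 Mrpl and 25 of 29 Mrps, against 51.7% of all genes. Centring each array of deposited values on its median as well lifts the median of all genes by 0.08 at 2 h and 0.09 at 4 h. The member median moves with it, to −0.02 at 2 h. Centring shifts every gene of an array alike, so it cannot test the gap between members and all genes.

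**Figure D1:**
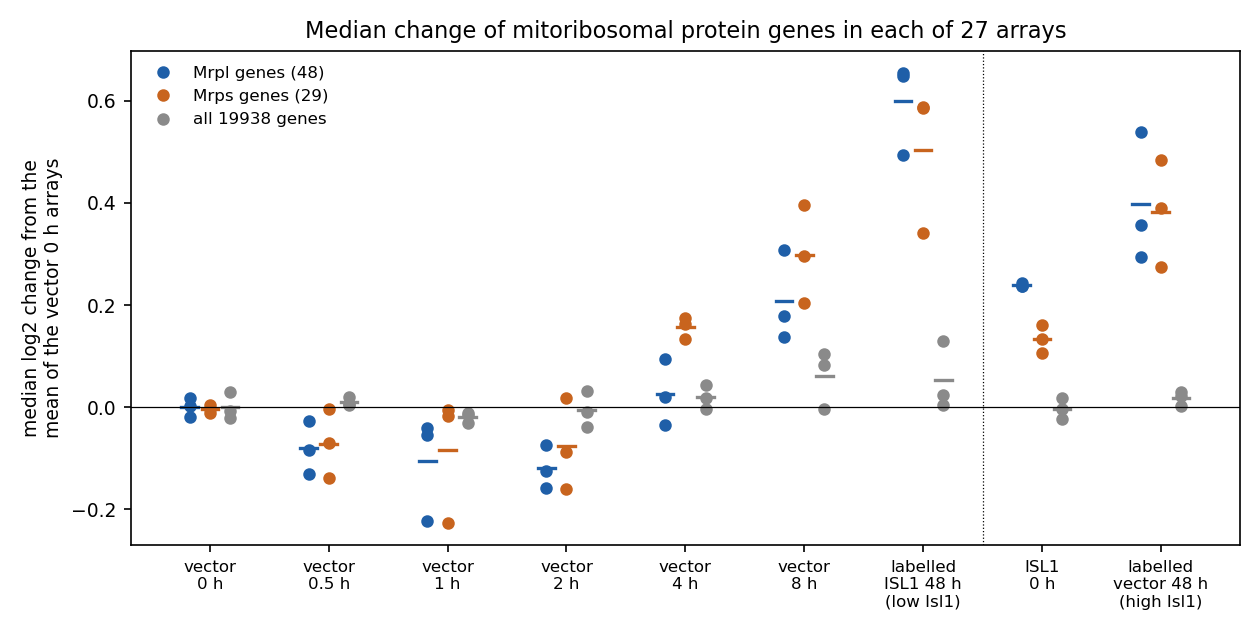
Each point is 1 array: the median log2 change from the vector 0 h mean over 48 Mrpl genes (blue), 29 Mrps genes (orange) or all 19938 genes (grey), with a bar at the mean of the 3 arrays of a group and the Flag-ISL1 and high-Isl1 groups right of the dotted line. The members lie below 0 at 0.5 to 2 h apart from 1 Mrps point at 2 h, climb to 0.49 to 0.65 (Mrpl) in the low-Isl1 48 h arrays, and the 1 h array lowest at −0.22 is also one of the arrays of narrow spread.

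No member passed the test at 0.5 h, where 0.777% of all genes rose and 0.502% fell. At an unadjusted p under 0.05, limma gave 1 member higher and 6 lower, where 626 of all 19938 genes were higher and 629 lower. With quantile normalization 1 member passed the adjusted test. At 1 h none rose at an adjusted p under 0.05, where 2.78% of all genes did. None was higher at an unadjusted p under 0.05 either, where 1054 of all 19938 genes were. By adjusted p 4 fell (4.29% of all genes did): Mrps31 by 0.35, Mrpl19 by 0.27, Mrpl55 by 0.24 and Mrpl49 by 0.19. None of these 4 kept the call when arrays were centred on the median, and leaving out vector 0 h replicate 1 also took the count to 0. The median member change was −0.23 in 1 h replicate 1, an array of narrow spread, and −0.03 in each of the other 2 arrays; the part of that spread in the result was not tested, and without the 8 narrow arrays 2 members fell.

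At 2 h more members had fallen than risen, among Mrpl and Mrps genes alike. Of the members 22 fell, where 17.5% of all genes fell, and 2 rose, where 10.9% rose. By symbol 14 of 48 Mrpl and 8 of 29 Mrps fell. At this time 3 of 7 adipocyte markers had fallen, and of 6 preadipocyte markers 1 had risen and 2 fallen, and their part in the members' result was not tested. With median centring 11 fell and 5 rose, so the direction of the balance stayed but its size depends on the scaling. Shares of all genes were not counted under centring, here or below. Without vector 2 h replicate 2 the number past the test was 16 in place of 24.

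Mrpl45, whose product holds the ribosome to the inner membrane where the new peptide leaves, read 9.15, 9.40 and 9.11 (log2) in the vector 0 h arrays and 8.50, 8.37 and 8.70 at 2 h. All 2 h arrays lay below all 0 h arrays, a fall of 0.70 (SE 0.131, adjusted p = 0.00013). Mrpl19, a counterpart of a bacterial large-subunit protein, went from 10.36, 10.27 and 10.22 to 9.63, 9.63 and 9.72, a fall of 0.63 (SE 0.082, adjusted p = 9.0e-07), again with no overlap. Mrpl1, of the mobile stalk through which used transfer RNA leaves, went from 9.53, 9.43 and 9.56 to 8.99, 8.84 and 9.04, which is 0.55 lower (SE 0.099, adjusted p = 8.4e-05), and the groups were apart. Mrps27, a small-subunit protein with RNA-binding helical repeats, fell by 0.43 (adjusted p = 0.0090), but without vector 2 h replicate 2 its adjusted p was 0.073. Mrpl27, near the site of peptide bond formation, fell by 0.42. The 2 members that rose were Mrpl12 (0.24, adjusted p = 0.041) and Mrps10 (0.24, adjusted p = 0.025). Each lost its call in 4 of the 6 fits that left out 1 array, with adjusted p up to 0.20 and 0.14. With median centring their adjusted p was 0.0046 and 0.0024, and without the narrow arrays 0.038 and 0.063.

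Between 2 and 4 h more members rose than fell. In that step 30 rose and 6 fell, against 13.7% and 14.2% of all genes, and with median centring the split was 29 and 2. Mrpl19 recovered by 0.78 (SE 0.082, adjusted p = 4.7e-08), from 9.63, 9.63 and 9.72 to 10.47, 10.51 and 10.33, every 4 h array above every 2 h array. Mrps27 recovered by 0.77 (SE 0.124), from 9.05, 8.85 and 9.20 to 9.79, 9.78 and 9.84. Both had been among the 5 largest falls at 2 h, and neither gene's 4 h arrays overlapped its 2 h arrays. Mrps30, in structures a large-subunit protein, rose by 0.70, Mrpl50 by 0.64 and Mrpl47 by 0.62. The largest fall in the step was that of Mrpl48, by 0.41 (adjusted p = 0.00025). Mrps6 fell by 0.27, with an adjusted p of 0.060 without the narrow arrays. Mrpl27, Mrpl54 and Mrpl14 fell by 0.27, 0.26 and 0.25, with calls that most fits leaving out 1 array did not keep. The adjusted p of Mrpl27 without the narrow arrays was 0.053.

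Against 0 h, 27 members were up at 4 h, where 17.3% of all genes rose, and 19 were down, where 22.7% fell. Median centring gives 36 and 14. At 4 h 4 of 7 adipocyte, 3 of 6 preadipocyte and 1 of 4 muscle markers had also fallen, and their part in the members' result was not tested. Of Mrpl genes 15 rose and 11 fell, of Mrps genes 12 and 8. The genes furthest up were Mrpl12 (0.70), Mrpl50 (0.64), Mrps2 (0.60), Mrps7 (0.56) and Mrpl20 (0.52), and those furthest down Mrpl27 (−0.68), Mrps6 (−0.52), Mrpl45 (−0.46), Mrps9 (−0.40) and Mrps33 (−0.38). Mrps2 and Mrps7 are counterparts of bacterial small-subunit proteins. Mrps2 read 10.40, 10.20 and 10.24 at 0 h and 10.90, 10.89 and 10.84 at 4 h, with no overlap. Mrps6, a counterpart of a bacterial protein at the platform of the small subunit, read 13.16, 13.13 and 13.25 at 0 h and 12.55, 12.78 and 12.65 at 4 h, all lower. In RefSeq Slc5a3, a coding gene for an inositol transporter, overlaps the span of Mrps6, and no source used here says which exons the probes read. Such an overlap with another coding gene holds for 19 of the 77 members, among them Mrpl18, Mrpl19, Mrpl21, Mrpl27, Mrpl48, Mrps2, Mrps7 and Mrps18a. A further limit is that 8 members have 2 probe sets, of which the brighter was used, and these pairs had the same sign at 8 h in all 8. In the low-Isl1 48 h arrays against 0 h, every pair but that of Mrpl27 (0.12 and −0.04) kept 1 sign, though Mrpl47 gave 0.99 and 0.30. Between the constructs at 0 h every pair kept 1 sign, but Mrpl41 gave 0.24 and 0.01 and Mrpl47 0.38 and 0.07.

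By 8 h most members that moved were up, and a smaller share fell than of all genes. At that time 39 members were higher, where 24.2% of all genes rose, and 11 lower, where 21.9% fell. By symbol the split was 24 up and 6 down of 48 Mrpl and 15 up and 5 down of 29 Mrps. By origin, 23 of 46 members with a bacterial counterpart rose and 8 fell, and of 31 without one 16 rose and 3 fell, with medians of 0.26 and 0.22. Neither the difference by symbol nor that by origin was tested. No member had changed 2-fold by then, where 1377 of all 19938 genes passed with such a change. At the same time 6 of 7 adipocyte, 4 of 6 preadipocyte and 1 of 4 muscle markers had fallen, and their part in the members' result was not tested.

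Mrpl12, the stalk protein that engages the elongation factors, read 9.79, 9.75 and 9.60 at 0 h, 10.41, 10.43 and 10.40 at 4 h and 10.68, 10.53 and 10.59 at 8 h. The groups were apart at each step, and the 8 h change was 0.89 (SE 0.088, adjusted p = 3.7e-09), a 1.85-fold rise. Mrpl50, a large-subunit protein with no bacterial counterpart, read 9.84, 9.93 and 9.90 at 0 h and 10.69, 10.87 and 10.62 at 8 h. It rose by 0.84 (SE 0.085, adjusted p = 5.2e-09), with 8 h values all above those at 0 h. Mrpl20, a bacterial-type protein that binds ribosomal RNA early in assembly in bacteria, went from 9.53, 9.60 and 9.52 to 10.42, 10.37 and 10.33, a rise of 0.82 (SE 0.089) without overlap. Mrpl21 rose by 0.75 (SE 0.115, adjusted p = 4.5e-06), and its arrays went from 8.71, 8.56 and 8.50 to 9.07, 9.55 and 9.39, the widest spread of these.

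The members that fell at 8 h were led by Mrpl23, whose product lies by the exit of the peptide tunnel. It read 11.29, 11.48 and 11.44 at 0 h, 11.19, 11.26 and 11.22 at 4 h and 10.54, 10.71 and 10.66 at 8 h. The 8 h arrays stood apart from all earlier ones, at a change of −0.77 (SE 0.081, adjusted p = 9.7e-09). A second probe set of the gene gave −0.76. Mrpl54 read 9.77, 9.92 and 9.84 at 0 h and 9.04, 9.36 and 9.10 at 8 h, and fell by 0.68 (SE 0.096, adjusted p = 1.2e-06). Mrpl48, a protein of the central protuberance, read 10.32, 10.39 and 10.39 at 0 h and 9.61, 9.92 and 9.73 at 8 h, and fell by 0.61 (SE 0.081). In both genes the 8 h values lay wholly below the 0 h values. Mrpl27 fell by 0.63 and its second probe set read −0.70, and Mrps33 fell by 0.51 with −0.48 at its second probe set. The other members that fell were Mrps6, Mrps28, Mrps15, Mrpl33, Mrps14 and Mrpl55, by 0.16 to 0.38, named here after their values were seen.

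**Figure D2:**
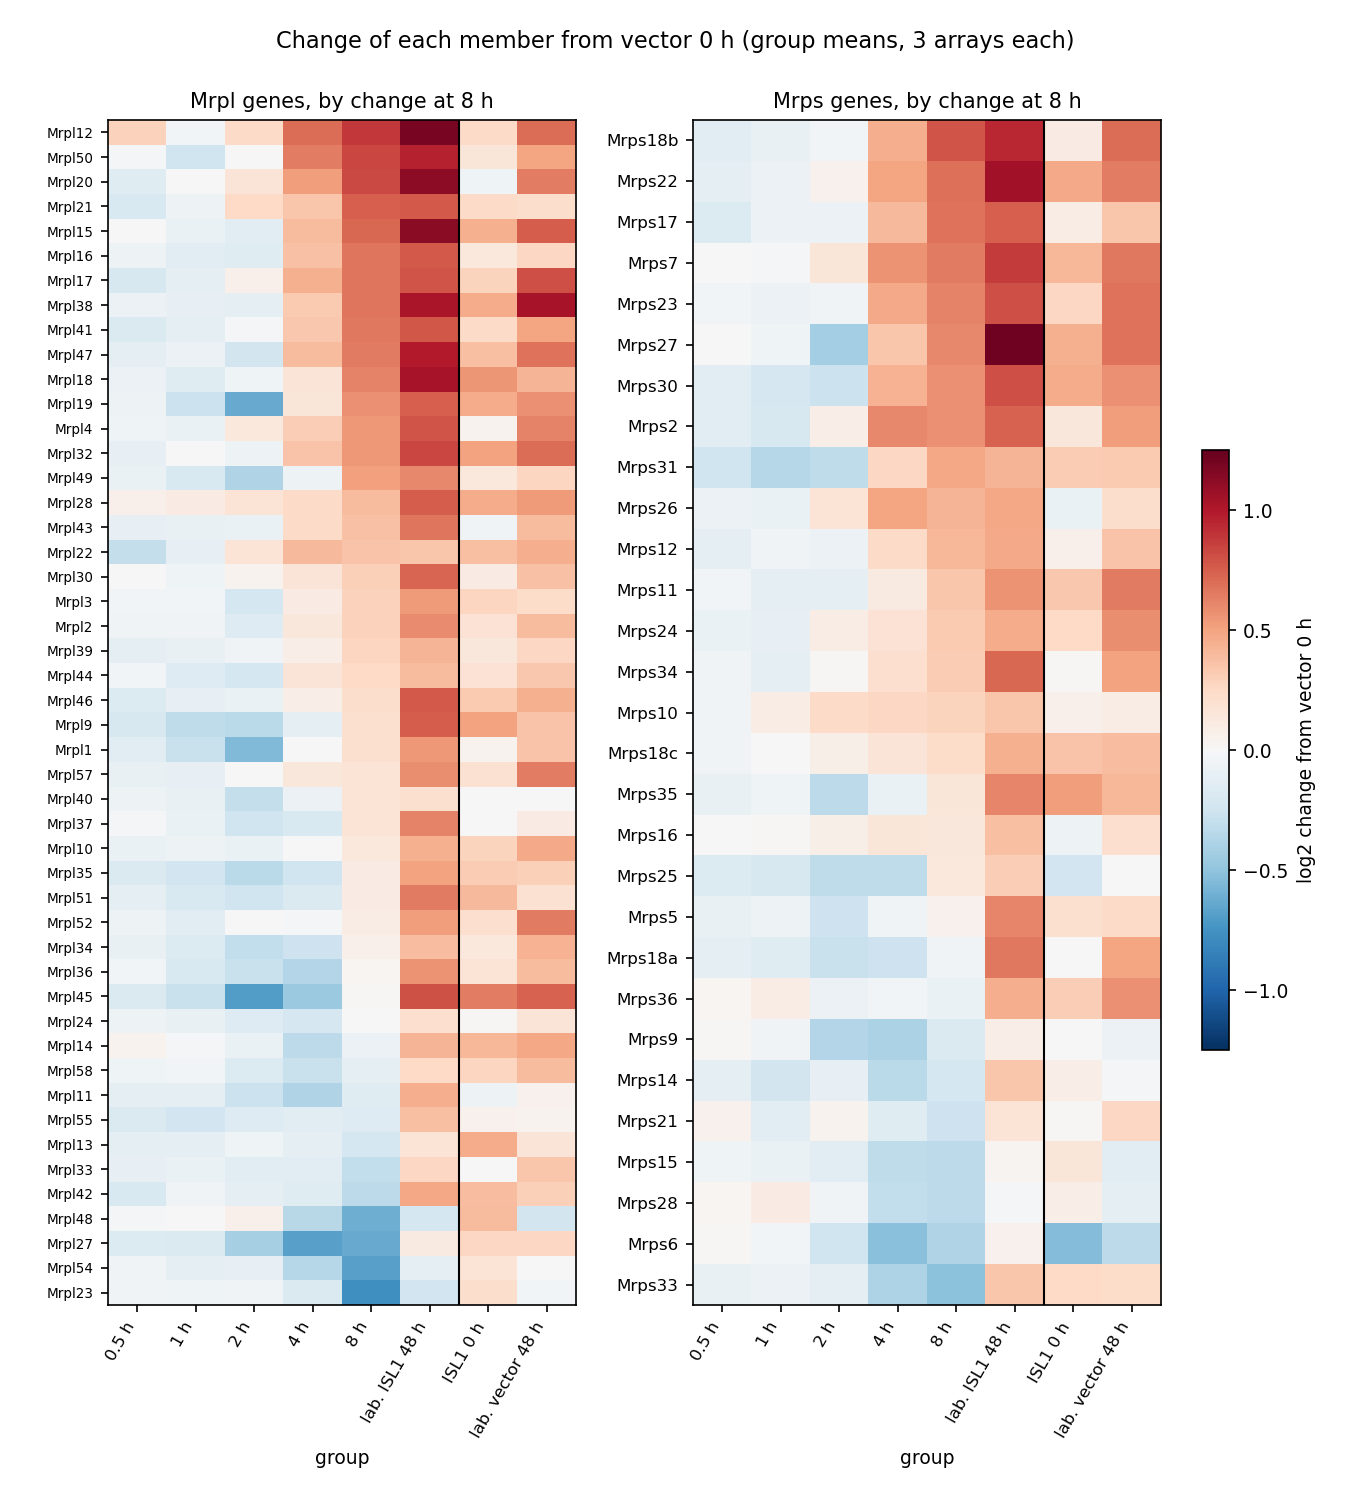
Colour gives the log2 change of each gene's group mean (3 arrays) from the vector 0 h mean, with 48 Mrpl genes at the left and 29 Mrps genes at the right, each ordered by its 8 h change, and the high-Isl1 groups right of the black line. Mrpl12 at the top and Mrpl23 at the bottom of the left panel span 0.89 to −0.77 at 8 h, and in the low-Isl1 48 h column nearly all genes are red.

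The step from 4 to 8 h was largely one of Mrpl genes by count. In it 23 members rose and 3 fell, against 13.7% and 10.2% of all genes, and these were 20 up and 3 down of 48 Mrpl and 3 up of 29 Mrps. The median change was 0.20 for Mrpl and 0.14 for Mrps, with quartiles of 0.13 and 0.32 for Mrpl and −0.01 and 0.21 for Mrps, and the difference between the subunits was not tested. Mrpl49 rose most, by 0.58 (adjusted p = 2.1e-08), then Mrpl45, by 0.48, which brought it from 8.59, 8.95 and 8.74 at 4 h to 8.95, 9.53 and 9.23 at 8 h, a difference of 0.01 from its 0 h level (adjusted p = 0.94). The 3 that fell were Mrpl23, Mrpl54 and Mrpl48. These 5 genes were chosen after their values were seen.

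The paralogs of 1 protein family, Mrps18a, Mrps18b and Mrps18c, included 1 that rose at 8 h, Mrps18b. In structures the first lies in the large subunit and the other 2 in the small one, at different sites. Mrps18b read 10.96, 10.90 and 10.88 at 0 h, 11.42, 11.34 and 11.36 at 4 h and 11.66, 11.82 and 11.63 at 8 h, without overlap, a rise of 0.79 at 8 h (SE 0.086, adjusted p = 1.8e-08). Mrps18a read 10.92, 10.93 and 10.89 at 0 h and 10.90, 10.92 and 10.80 at 8 h, which overlap, at −0.04 (SE 0.067, adjusted p = 0.63). In between it had dipped to 10.61, 10.57 and 10.75 at 2 h, a fall of 0.27 whose adjusted p went from 0.0022 to 0.055 with median centring. Mrps18c differed by 0.23 at 8 h (SE 0.121, adjusted p = 0.12), with arrays at 9.88, 10.18 and 10.19 before and 10.18, 10.56 and 10.21 after, which also overlap. The difference between the paralogs' changes was not tested.

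At 48 h in the low-Isl1 arrays nearly the whole set was up. Against vector cells at 0 h, the arrays labelled Flag-ISL1 48 h (Isl1 signal 7.65 on average) had 65 members higher, where 21.3% of all genes rose, and 2 lower, where 20% fell. The median member change was 0.56, against 0.06 for all genes. It was 0.58 for Mrpl genes, with 41 of 48 higher, and 0.47 for Mrps genes, with 24 of 29 higher. By origin 29 of 31 members without a bacterial counterpart and 36 of 46 with one were higher, with medians of 0.61 and 0.52. At least 2-fold up were 7 members, 5 Mrpl and 2 Mrps, where 1249 of all 19938 genes passed with a 2-fold change either way. Over all 9 groups 54 members had their highest mean here, a count not made for all genes. The array medians were 0.63, 0.44 and 0.64, the lowest in replicate 2, which has the narrowest spread of the 27 arrays and an Isl1 signal of 8.01 where the others read 7.48 and 7.47. In the same comparison 6 of 7 adipocyte markers rose and all 6 preadipocyte markers fell. Of 4 epithelial markers 1 rose, and of 4 muscle markers 1 fell. The part of these markers in the members' result was not tested. Without the narrow arrays 69 members rose and 1 fell, with a median of 0.64.

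Mrps27 changed most. It read 9.42, 9.48 and 9.48 in vector cells at 0 h and 10.58, 10.61 and 10.85 in the arrays labelled Flag-ISL1 48 h, far apart, a rise of 1.22 (SE 0.124, adjusted p = 5.5e-09) or 2.33-fold. Mrpl12 reached 10.98, 10.84 and 10.87, above all its 8 h arrays, 1.18 over 0 h (SE 0.088, adjusted p = 1.8e-11) or 2.27-fold. Mrpl15, a bacterial-type protein of the large subunit, went from 10.07, 10.13 and 10.20 to 11.37, 11.15 and 11.26, a rise of 1.12 (SE 0.069, adjusted p = 3.5e-13). Mrpl20 rose by 1.12 and Mrps22, a small-subunit protein without a bacterial counterpart, by 1.05. The arrays of both lay wholly above those of 0 h. Mrps18b, Mrps18a and Mrps18c were now all higher, by 0.94, 0.65 and 0.45.

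The 2 members below their 0 h level were Mrpl23 (−0.24, adjusted p = 0.017) and Mrpl48 (−0.22, adjusted p = 0.030). Neither call held with median centring, where the adjusted p was 0.068 and 0.10, or without replicate 2 of the arrays labelled Flag-ISL1 48 h, where it was 0.15 and 0.16. Without the narrow arrays it was 0.096 for Mrpl23 and 0.042 for Mrpl48. Both genes had come back up from 8 h. Set against vector cells at 8 h, the same arrays had 52 members higher, where 15.7% of all genes rose, and none lower, where 14.9% fell. At an unadjusted p under 0.05 none was lower either, where 3636 of all 19938 genes were. In that step Mrpl23 regained 0.53 (adjusted p = 8.2e-06), Mrpl54 0.56, Mrpl27 0.74 and Mrps33 0.86, and Mrpl45 gained 0.78, while Mrpl21 differed by 0.01 (adjusted p = 0.96). Mrpl24 passed no test in any of the 17 comparisons made. It read between 9.56 and 10.17 over all arrays.

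**Figure D3:**
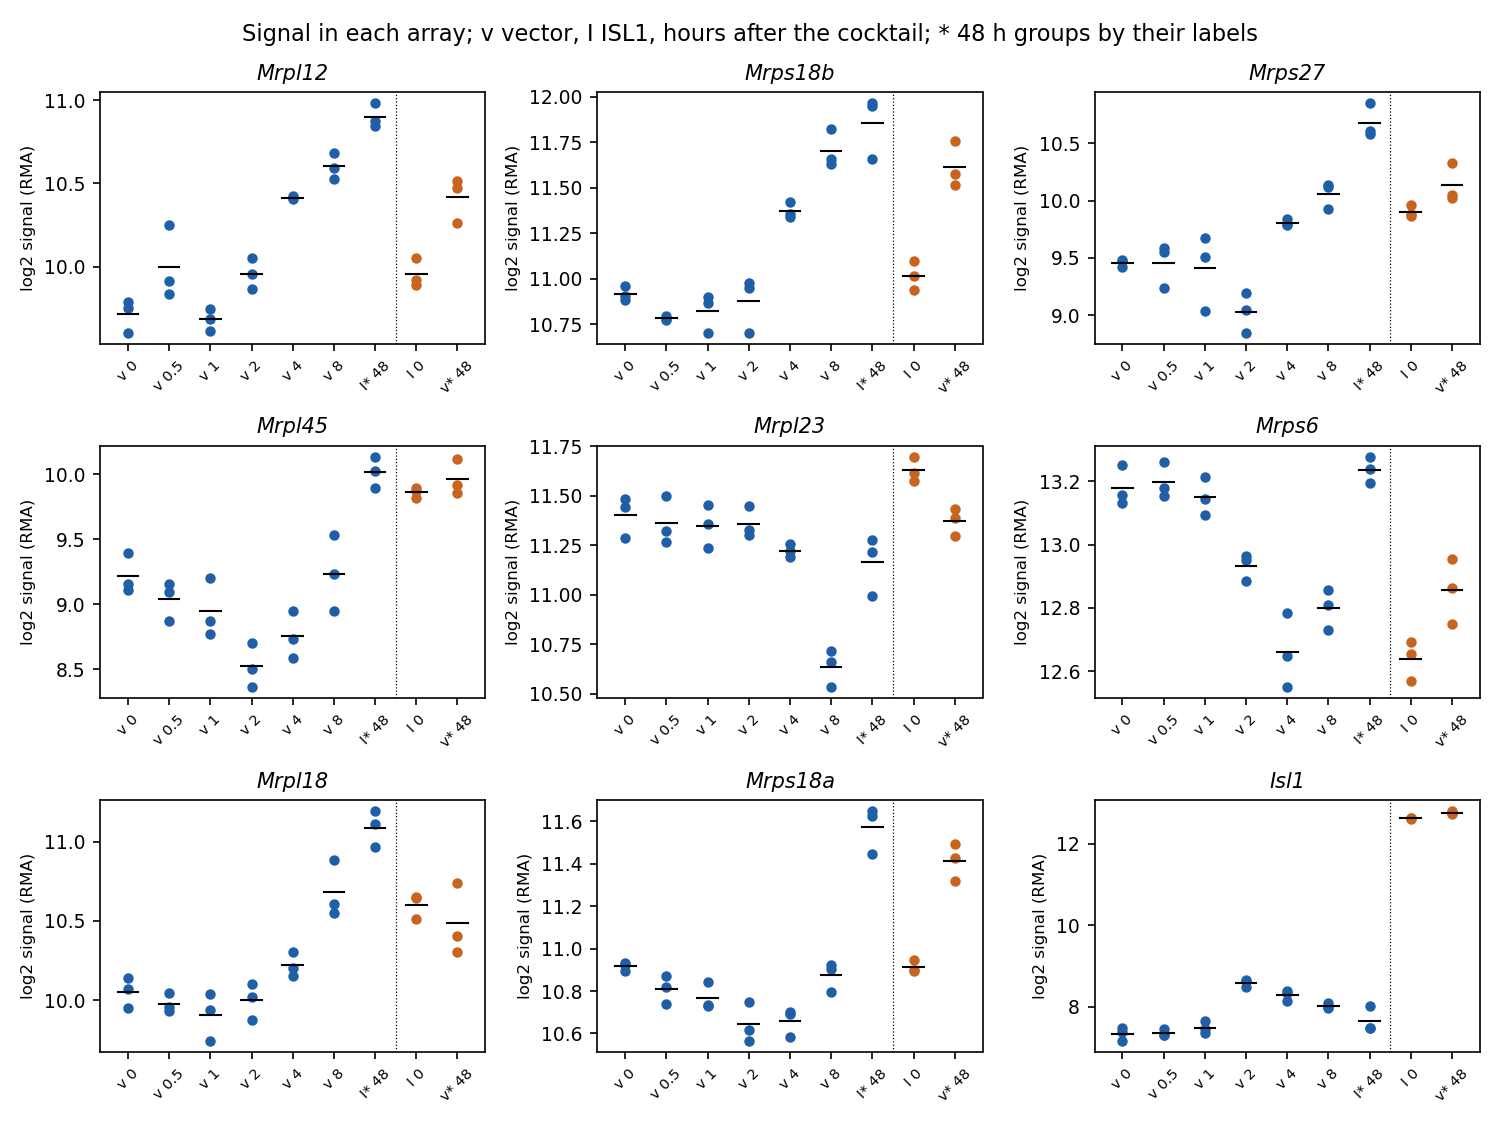
Each panel gives the log2 signal of 1 gene in each of the 27 arrays (points) with the mean of 3 arrays (bar), vector and low-Isl1 groups in blue and Flag-ISL1 0 h and high-Isl1 48 h groups in orange, on an axis of its own that does not start at 0. Mrpl12 and Mrps18b climb from 4 h, Mrps27 and Mrpl45 dip at 2 h first, Mrpl23 is lowest at 8 h, and the Isl1 panel shows the 48 h labels running against the signal.

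Before induction the members were already higher in Flag-ISL1 cells than in vector cells. At 0 h 32 members were higher, where 15.3% of all genes were, and 2 lower, where 10.4% were. The median difference was 0.21, against −0.01 over all genes, and 0.24 for Mrpl genes (22 of 48 higher, none lower) and 0.14 for Mrps genes (10 of 29 higher, 2 lower). All 3 Flag-ISL1 arrays gave a member median of 0.20 to 0.21 over the vector mean. In the same comparison all 7 adipocyte markers were lower, with a mean level of 8.58 to 8.62 in the Flag-ISL1 arrays and 10.73 to 10.83 in the vector arrays. Of 6 preadipocyte markers 4 were lower too. Also, 1 of 4 endothelial markers was higher (Tek, at 7.26 in Flag-ISL1 and 6.70 in vector cells). Of 4 muscle markers 1 was lower (Des, at 7.90 and 8.54). The part of these differences in the members' result was not tested.

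Mrpl45 differed most, at 9.15, 9.40 and 9.11 in vector and 9.90, 9.87 and 9.82 in Flag-ISL1 cells, 0.64 higher (SE 0.131, adjusted p = 0.00043) with no overlap. Mrpl18, a protein of the central protuberance, read 10.14, 10.07 and 9.95 against 10.64, 10.65 and 10.51, 0.55 higher (SE 0.103, adjusted p = 0.00016), and the groups were apart. Mrps35 was 0.52 higher, Mrpl32, which a protease of the inner membrane must trim before it can join the ribosome, 0.51, and Mrpl9 0.50. Mrps6 went the other way, at 13.16, 13.13 and 13.25 in vector and 12.57, 12.69 and 12.65 in Flag-ISL1 cells, 0.54 lower (SE 0.067, adjusted p = 4.3e-07), again with no overlap. Mrps25 was 0.23 lower (adjusted p = 0.023, up to 0.080 with an array left out). Mrpl12 was 0.24 higher with an adjusted p of 0.049, and 5 of the 6 fits that left out an array lost that call.

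From 0 to 48 h fewer members changed in the high-Isl1 cells, a difference that the interaction tests. The arrays labelled vector 48 h (Isl1 signal 12.76) had 28 members above Flag-ISL1 cells at 0 h, where 14.2% of all genes rose, and 5 below, where 19% fell, with a median change of 0.16. Of Mrpl genes 15 rose and 4 fell, of Mrps genes 13 and 1. Mrpl20 rose most, from 9.45, 9.47 and 9.57 to 10.27, 10.09 and 10.21, by 0.69 (SE 0.089, adjusted p = 4.7e-07). Mrps18b rose by 0.60, Mrpl4 by 0.58, Mrpl38 by 0.57 and Mrpl17 by 0.53, and Mrpl12 by 0.46. The falls were led by Mrpl48, from 10.72, 10.82 and 10.73 to 10.13, 10.03 and 10.25, by 0.62 (SE 0.081, adjusted p = 5.0e-07), and all its 48 h arrays lay below. Mrpl13 fell by 0.31, Mrps15 by 0.29, Mrpl23 by 0.26 and Mrpl51 by 0.21, and of these Mrpl13, Mrpl23 and Mrpl51 lost the call with median centring (adjusted p 0.10, 0.096 and 0.17). All 7 adipocyte markers rose in this comparison, to a mean level of 10.21 to 10.40, against 11.84 to 12.01 in the low-Isl1 48 h arrays. All 6 preadipocyte markers and 1 of 4 endothelial markers fell. The part of these changes in the members' result was not tested.

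At 48 h itself the difference ran the other way. The high-Isl1 arrays (labelled vector 48 h) had 29 members below the low-Isl1 arrays (labelled Flag-ISL1 48 h), where 14% of all genes were lower. None was above, where 13.8% were higher. At an unadjusted p under 0.05, limma gave 1 member higher and 42 lower, where 3336 of all 19938 genes were higher and 3600 lower. Quantile normalization gave 1 higher and 41 lower. The median difference was −0.19. Mrpl18 read 10.31, 10.41 and 10.74 in the high-Isl1 arrays and 11.11, 10.96 and 11.19 in the low-Isl1 arrays, 0.60 lower (SE 0.103, adjusted p = 4.0e-05) with no overlap. Mrps27 and Mrpl21 were each 0.54 lower, Mrpl37 0.52 and Mrpl16 0.50, and Mrpl12 0.48. By the labels alone, these genes read as lower in vector than in Flag-ISL1 cells. All 7 adipocyte markers and 2 of 6 preadipocyte markers were lower in the high-Isl1 arrays as well, as were 1 of 5 blood and 1 of 4 muscle markers. The part of these differences in the members' result was not tested.

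The difference between high-Isl1 and low-Isl1 cells at 48 h was then set against that at 0 h in 1 test, an interaction over 4 groups. For 43 members it was lower at 48 h than at 0 h, where 13.2% of all genes were, and for none higher, where 11.4% were. At an unadjusted p under 0.05 none was higher either, where 2965 of all 19938 genes were. By the same test 4 of 7 adipocyte markers were higher and 1 lower, and 3 of 6 preadipocyte markers were higher. Cd68 was lower by 0.49, and 1 of 4 endothelial markers was lower too. The part of these markers in the members' result was not tested. The members' median was −0.36, at −0.42 for Mrpl genes (29 of 48 lower) and −0.33 for Mrps genes (14 of 29 lower). Mrpl18 led with −1.15 (SE 0.145, adjusted p = 6.6e-07), from 0.55 higher at 0 h to 0.60 lower at 48 h. Mrps27 followed with −0.99 (SE 0.175, adjusted p = 8.0e-05), and Mrpl9 with −0.91 (SE 0.155, adjusted p = 5.1e-05). Mrpl12 gave −0.72 (SE 0.125) and Mrps18b −0.34 (adjusted p = 0.040). The Mrps18b call was lost in 8 of the 12 fits that left out an array, with adjusted p up to 0.12, with median centring (0.098) and with only the groups compared (0.060). If the 48 h labels are taken as they stand, the same test gives 9 members higher and 13 lower with a median of 0.0005, so this result holds only for the reading by Isl1 signal.

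**Figure D4:**
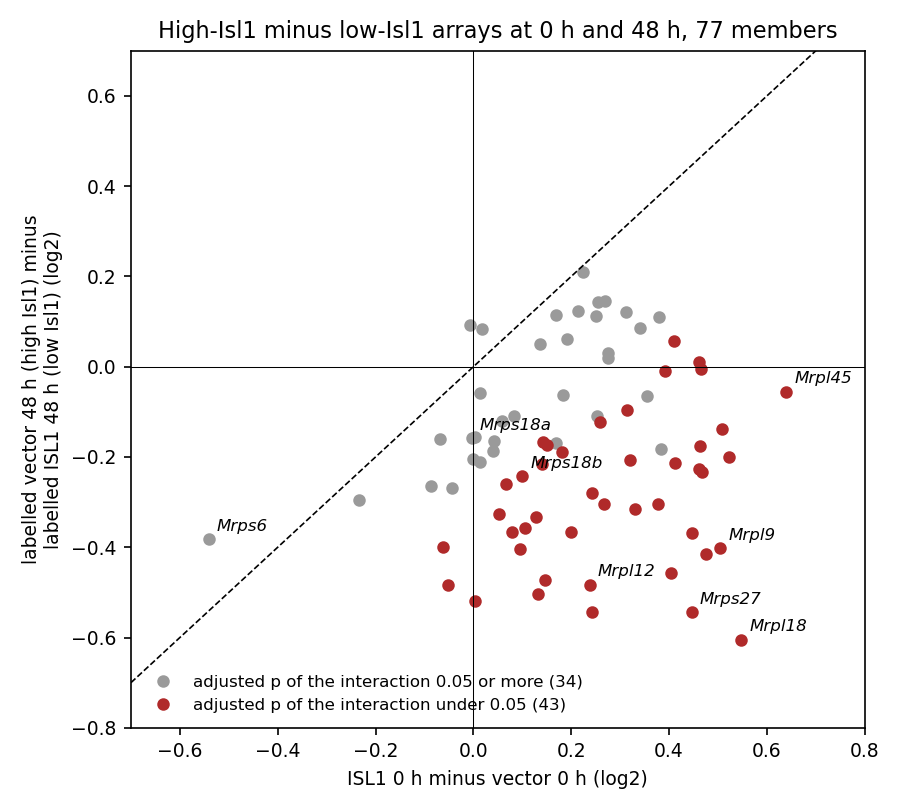
Each point is 1 of 77 members: the log2 difference between Flag-ISL1 and vector cells at 0 h across, and between the arrays labelled vector 48 h (high Isl1) and Flag-ISL1 48 h (low Isl1) upward, each from 3 against 3 arrays, with the line of equal difference dashed. The 43 members whose 2 differences are unequal by the interaction (red) all lie below the line, with Mrpl18 furthest from it.

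Proteins of the same ribosome that carry other symbols gave mixed values. Ptcd3, a small-subunit protein that guides messengers to the ribosome, rose by 1.01 at 8 h (SE 0.086, adjusted p = 2.0e-10) and was 1.13 up in the low-Isl1 48 h arrays, and its interaction was −1.02. Dap3, a GTP-binding small-subunit protein, rose by 0.75 at 8 h, but its interaction was 0.02 (SE 0.106, adjusted p = 0.95). Chchd1 differed by −0.09 and Gadd45gip1 by 0.10 at 8 h, neither past the test. Among members first known by other names, Mrpl58, which frees stalled ribosomes, was 0.12 lower at 8 h (adjusted p = 0.19) after a fall of 0.28 at 4 h, and Mrpl57 was 0.17 higher (adjusted p = 0.074), with both higher in the low-Isl1 48 h arrays, by 0.25 and 0.58.

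The other machinery around the mitochondrial ribosome moved unevenly, read against the 24.2% of all genes that rose and the 21.9% that fell at 8 h. Of 13 mitochondrial translation factors 3 rose and 5 fell at 8 h, with the elongation factor Gfm1 up by 0.57 and the initiation factor Mtif2 down by 0.55. Of 27 assembly and ribosomal RNA modification factors 13 rose and 6 fell, Noa1 by 1.64 and C1qbp by 1.27 upward and Gtpbp8 by 1.31 downward. The 19 aminoacyl-tRNA synthetases split 5 and 5, and at 2 h 12 of them had fallen, where 17.5% of all genes fell, and 3 had risen, where 10.9% rose. Of 18 genes of the mitochondrial DNA and RNA machinery 11 rose and 3 fell, with a median of 0.39. Of 11 regulators of mitochondrial biogenesis 3 rose and 4 fell, with a median of 0.05. Of 28 import components and chaperones 25 rose, led by Timm8a1 (2.17), a small import chaperone. Nuclear-encoded respiratory chain subunits stayed closer to all genes, with 21 of 71 up, 8 down and a median of 0.08. The cytosolic side was further up: 42 of 43 genes of nucleolar ribosome biogenesis rose and 1 fell, with a median of 1.37, and Myc, a known regulator of ribosome genes, rose by 3.08. By 48 h in the low-Isl1 arrays 62 of 71 respiratory chain subunits were up and 1 down, with a median of 0.47, and 8 of 13 translation factors and 13 of 19 synthetases were up, where 21.3% of all genes rose and 20% fell. These lists were drawn up with earlier results of the same arrays known.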

How the data were processed

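Total RNA of 27 samples was hybridised to Affymetrix arrays, 1 array per sample. The authors deposited log values, read here as log2 from their range of 3.35 to 14.85; they were made with RMA per the submitters' processing notes, and no source used here gives the genome build. Detection calls were not used. Of 28853 probe sets, 21789 have 1 gene symbol, 1621 several and 5443 none. A gene took its probe set with the highest mean, which gave 19938 genes. Groups come from the labels. limma 3.58.1 in R 4.3.3 fitted 1 mean per group over all arrays, and p-values were adjusted by Benjamini-Hochberg over all genes; on simulated data the fit was checked for known changes. RMA scales each array to the others, so shifts shared by most genes are removed, and its summaries compress low signals. Arrays give no read depth: 3 arrays a group limit the precision.

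Members and lists were chosen with earlier results of these data known, and the structural roles were set after values were seen. Named are the 5 largest rises and falls past the test per comparison (3 for the interaction), members that passed against the majority direction at 8 and 48 h, the Mrps18 genes, Mrpl12, ribosomal proteins with other symbols, and up to 3 genes of each context list. Alternatives were quantile normalization, median centring, a low-signal filter at 6, averaged probe sets, limma's trend and robust options, only the groups compared, a replicate block, exchanged 48 h labels, each array left out and, chosen after seeing the data, the 8 narrow arrays left out.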

Additional observations from a re-analysis of the deposited data

Results flagged for a closer look

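The difference between high-Isl1 and low-Isl1 arrays was not the same at 48 h as at 0 h for 43 members, by the interaction term. The members named for it were Mrpl18 (-1.15), Mrps27 (-0.99), Mrpl9 (-0.91), Mrpl12 (-0.72) and Mrps18b (-0.34), all on the log2 scale and all lower at 48 h. The call of Mrps18b was lost in 8 of the 12 fits that left out an array, with median centring and with only the groups compared. These values hold for 48 h arrays read by their Isl1 signal.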

How the results depend on the processing

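Counts of members past the test for most comparisons stayed within 1.5 times. With the 48 h groups exchanged in each comparison, the interaction gave 22 in place of 43. The interaction reads the 48 h arrays by Isl1 signal, so its exchange takes the labels as they stand. Labelled Flag-ISL1 48 h gave 33 in place of 59 against Flag-ISL1 0 h and 31 in place of 52 against vector 8 h. Labelled vector 48 h against Flag-ISL1 0 h gave 59 in place of 33. The difference at 48 h gave 29 with its sign turned, which the exchange fixes in advance. Under the same exchange the interaction of Mrpl12, Mrpl18, Mrps18b and Mrps27 became 0.24, 0.057, 0.14 and 0.10, and the 48 h difference of Mrpl12, Mrpl16, Mrpl18, Mrpl21, Mrpl37, Mrps18b and Mrps27 became 0.48, 0.50, 0.60, 0.54, 0.52, 0.24 and 0.54. Mrpl51 against Flag-ISL1 0 h became 0.25, and Mrps6, labelled vector 48 h against vector 0 h, 0.058. The other moves were in the early hours, and the cause was not tested. At 0.5 h quantile normalization gave 1 member in place of 0. At 1 h the 4 members became 10 with quantile normalization, 0 with median centring, 0 with only the groups compared and 2 without the narrow arrays. From 0.5 to 1 h, 1 member fell, and 0 did with median centring, with only the groups compared or without the narrow arrays. From 1 to 2 h, 5 rose and 7 fell, 12 in all; this became 23 with quantile normalization, 3 with only the groups compared, and 9 with the balance turned (6 up, 3 down) with median centring. From 4 to 8 h, 17 passed in place of 26 with only the groups compared.

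With each array left out in turn, the counts ranged from 0 to 5 at 1 h, from 0 to 1 for 0.5 to 1 h, from 3 to 13 for 1 to 2 h, from 16 to 25 at 2 h, from 37 to 41 at 4 h, from 45 to 49 at 8 h, from 30 to 34 for 2 to 4 h, from 18 to 30 for 4 to 8 h, from 26 to 30 for the constructs at 0 h, from 24 to 39 at 48 h and from 33 to 50 for the interaction. For labelled Flag-ISL1 48 h they ranged from 63 to 68 against vector 0 h, from 53 to 58 against Flag-ISL1 0 h and from 41 to 59 against vector 8 h, and for labelled vector 48 h from 27 to 33 against Flag-ISL1 0 h and from 48 to 58 against vector 0 h. At 0.5 h they stayed at 0. From 1 to 2 h the balance turned without vector 1 h replicate 2 (7) or 3 (9).

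Arrays of the same number deviated together in few groups: of 36 pairs of groups, 4 had all 3 correlations over 0.1, and in 3 every array correlated best with its own number, so the numbers were not taken as pairs. A replicate block gave 2 members in place of 4 at 1 h and moved no other count by over 1.5 times.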

Other observations

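The context genes also differed with Isl1. At 0 h, 29 of 43 genes of nucleolar ribosome biogenesis were higher in Flag-ISL1 than in vector cells (median 0.29), as were 26 of 71 nuclear-encoded respiratory chain subunits (0.16) and 16 of 28 import components and chaperones (0.23), beside 15.3% of all genes. Between 0 and 48 h this difference, read by Isl1 signal, became lower by the interaction for 38 of 43 nucleolar genes (median -0.78), 23 of 28 import genes (-0.51), 34 of 71 respiratory chain genes (-0.28), 14 of 18 genes of the mitochondrial DNA and RNA machinery (-0.44) and 11 of 19 mitochondrial aminoacyl-tRNA synthetases (-0.41), beside 13.2% of all genes. Of 11 regulators of mitochondrial biogenesis, 8 were lower in the arrays labelled vector 48 h than in those labelled Flag-ISL1 48 h (median -0.32), beside 14% of all genes. At 0 h 2 of these regulators were higher and 2 lower in Flag-ISL1 cells, beside 15.3% and 10.4% of all genes. By the interaction 4 of them were lower, beside 13.2%.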
